A study of Mus musculus with 53 samples.

Results

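Obese and non-obese mice of 1 genotype were compared in the paraventricular nucleus of the hypothalamus (PVN). All of them were chow-fed males that had inherited a null allele of Nnat from their father (Nnat+/-p), and they were divided by their labelled body weight into an obese group above 37 g and a non-obese group below 35 g. The comparison holds 7 of the 53 libraries of the series, each named here by the sample number in its title. Libraries 16, 17, 20 and 21 came from obese mice of 38.8, 46.5, 41.66 and 41.17 g, and libraries 18, 19 and 22 came from non-obese mice of 33.6, 34.3 and 27.4 g. The split used the labelled weight alone and no read count. Nnat encodes neuronatin, a small membrane proteolipid of the endoplasmic reticulum, and is imprinted, so that only the paternal copy is transcribed. The study followed the body weight of Nnat+/-p mice and their Nnat+/+ littermates on chow or on a high-fat diet (HFD), and sequenced RNA from the PVN and the arcuate nucleus (ARC). The mice were adult, of the C57BL/6 strain, and 13 to 14 weeks old according to the protocol. The allele is carried in the germline, with a lacZ cassette in place of the later exons, so neuronatin was missing from every tissue and from development onwards in the obese and the non-obese mice alike. Body weight was not assigned in this comparison, so a difference in RNA that preceded obesity and one that followed it cannot be told apart. The 3 chow-fed male Nnat+/+ PVN libraries, 13, 14 and 15, came from mice of 33.5, 31.4 and 32.45 g. They shared the estimate of the spread with the Nnat+/-p libraries and are given for reference.

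The PVN is an output nucleus of the hypothalamus. Its neuroendocrine neurons release corticotropin-releasing hormone (Crh) and thyrotropin-releasing hormone (Trh) towards the pituitary, its magnocellular neurons release vasopressin (Avp) and oxytocin (Oxt), and its melanocortin-responsive neurons, which carry the receptor Mc4r, restrain feeding. Mice that lack one copy of Sim1, a transcription factor that PVN neurons need in development, overeat and become obese. In many models of obesity the astrocytes and microglia of the hypothalamus change in number or shape, and the intermediate filament protein GFAP is the usual marker of reactive astrocytes.

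The PVN was laser-captured from cresyl violet stained coronal sections of 20 µm. Total counts ran from 2268021 in library 19 to 5569950 in library 22 over the 7 libraries, and mitochondrial ribosomal RNA took 24.4% to 33.3% of them. Total counts, the number of genes with a count and the mitochondrial share overlapped between obese and non-obese libraries (two-sided exact permutation p = 0.857, 0.571 and 0.943 for the difference of means). No 2 of the 7 libraries differed by so little as counting noise allows. The deleted gene bore out the genotype labels. Values are given as CPM, the reads of a gene scaled to a common library size with TMM factors. Nnat was at 5.39, 2.41, 15.8 and 5.41 in obese libraries 16, 17, 20 and 21 and 2.69, 5.06 and 4.67 in non-obese libraries 18, 19 and 22, against 369 to 467 CPM in the Nnat+/+ libraries. The 2 groups overlapped, and the highest value was that of library 20. The markers of the dissected nucleus were present in all 7 Nnat+/-p libraries, but not to the same extent. The summed level of the 4 PVN transcription factors Sim1, Otp, Pou3f2 and Arnt2 was 525 to 884 CPM in the obese libraries and 730 to 829 CPM in non-obese libraries 22 and 18, but 369 CPM in non-obese library 19. Library 19 was also the highest of the 7 in the 6 genes of thalamic neurons, at 420 CPM against 95.8 to 280 CPM in the other 6. Nnat+/+ library 15 held 0.553 CPM of Sim1, and its 4 PVN transcription factors summed to 177 CPM, the lowest of the chow-fed male PVN libraries. It held 111 CPM of the arcuate gene Pomc, while the Nnat+/-p libraries held 0.337 to 13.1 CPM of Pomc. Library 15 is thus a weak reference for the PVN, and where 3 Nnat+/+ values are listed below it is the last. Values without library 19 stand beside several of the gene lists.

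**Figure D1:**
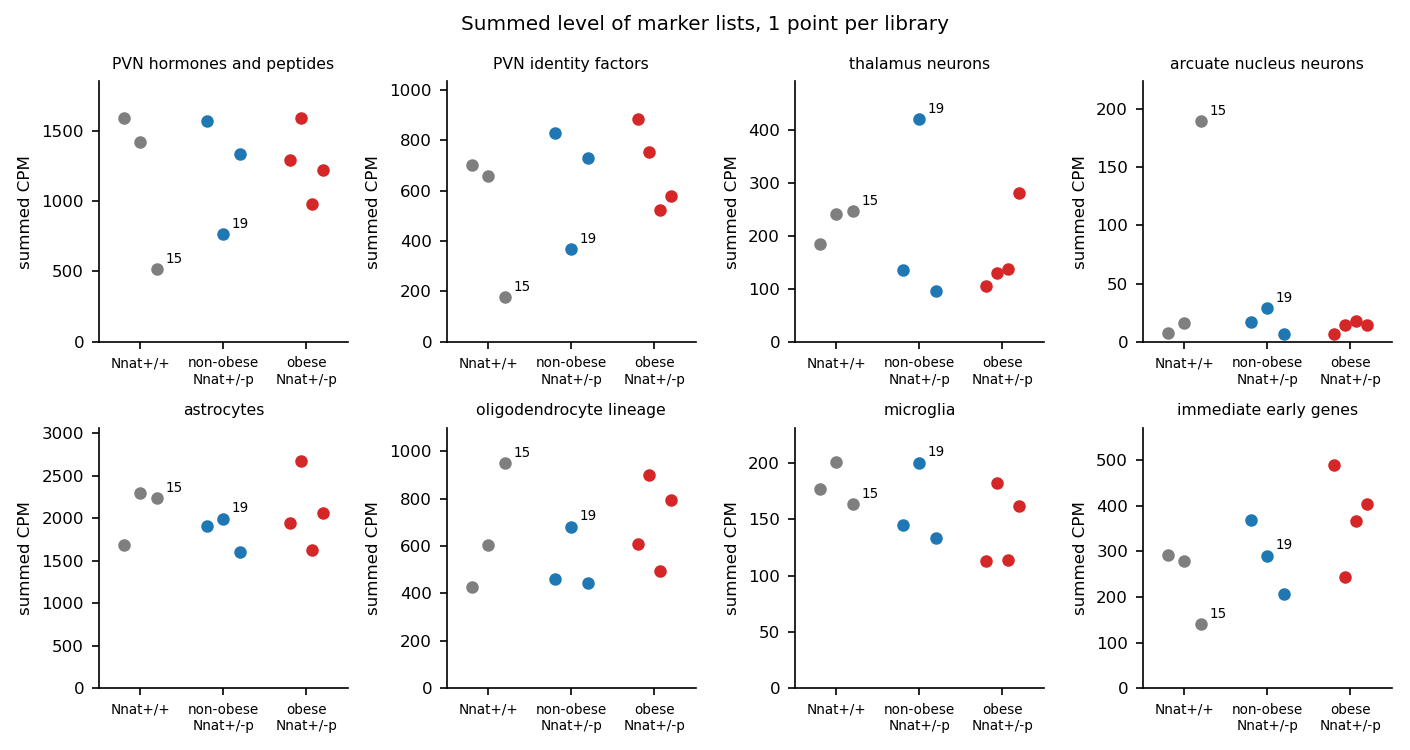
Summed CPM of 8 gene lists (vertical axis of each panel) in the chow-fed male PVN of Nnat+/+ mice and of both Nnat+/-p weight groups, 1 point per library, with libraries 15 and 19 numbered. Library 19 lies lowest of the 7 Nnat+/-p libraries in PVN hormones and PVN identity factors and highest in thalamus neurons, and the obese and non-obese points overlap in all 8 panels.

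No gene passed the test between the 2 weight groups. Of 15618 genes tested with edgeR's quasi-likelihood test (Benjamini-Hochberg adjusted), 0 (0%) were called at the study's threshold of an adjusted p under 0.25, and DESeq2 called 0 as well. At an unadjusted p under 0.05 there were 260 genes (1.66%), 131 higher (0.839%) and 129 lower (0.826%) in obese mice, and 345 (2.21%) by DESeq2. Both totals are below the share of 0.05 that this threshold passes on average where no gene differs. The genes were evenly split around no difference, with 49.5% of log2 fold changes above 0. Counted without any model, 592 genes (3.79%) had 4 obese values that all lay on 1 side of the 3 non-obese values, 251 (1.61%) above and 341 (2.18%) below. A random split of the libraries into 4 and 3 would place a share of about 0.0286 on each side, so both shares were lower. Without TMM factors, which moved the median log2 fold change by -0.08, the count of 592 became 572, of which 142 lay above. Precision depended on the level of the gene. The median standard error (SE) of the log2 fold change was 1.54 for 4514 genes under 5 CPM, 0.623 from 5 to 20 CPM, 0.328 from 20 to 100 CPM and 0.254 for 982 genes above 100 CPM. Among the genes above 100 CPM, 0.713% had an unadjusted p under 0.05 and 1.12% did not overlap between groups, both below the shares over all genes. In the statements that follow, an unadjusted p is that of edgeR's quasi-likelihood test over the 10 chow-fed male PVN libraries, and the adjusted p of every gene in that fit rounded to 1. With library 19 left out, 17004 genes were tested, 9041 had a log2 fold change above 0, and the median was 0.0437. List values without library 19 are to be read beside these.

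**Figure D2:**
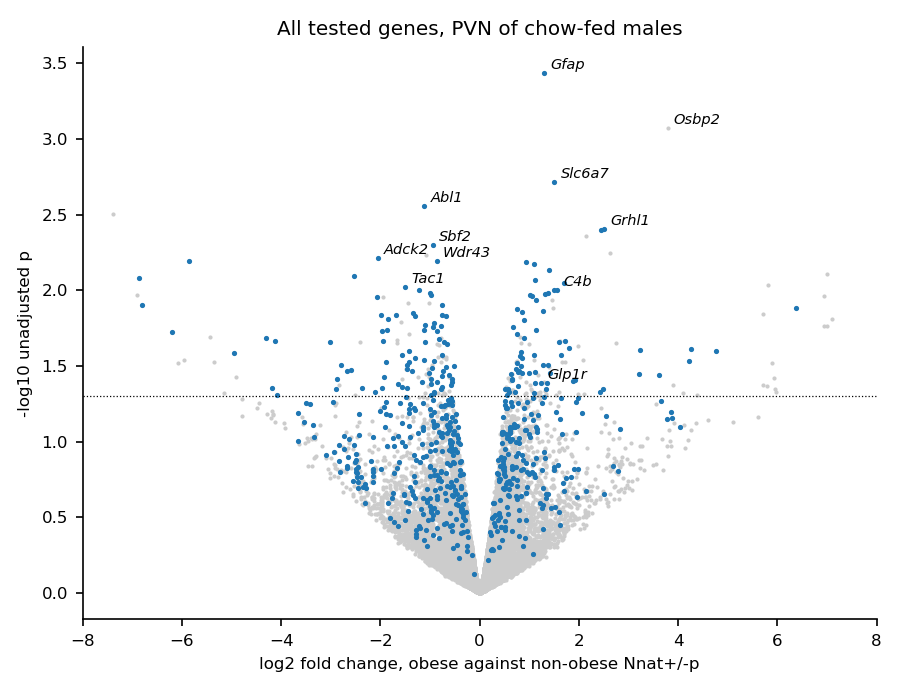
Each of 15618 tested genes by its log2 fold change between obese and non-obese Nnat+/-p PVN (horizontal axis, positive where obese is higher) and the negative log10 of its unadjusted p (vertical axis), with a dotted line at the level of 0.05 and blue points for genes whose groups do not overlap. Gfap has the smallest p of all genes at a log2 fold change of 1.29, and the cloud is symmetric around 0.

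Gfap, which encodes the intermediate filament of astrocytes, was the gene of smallest p, and it was the only gene to pass the test when the labelled weight was used in grams. Its level was 124, 191, 99.4 and 122 CPM in obese libraries 16, 17, 20 and 21 and 64.0, 69.1 and 32.3 CPM in non-obese libraries 18, 19 and 22. All 4 obese values lay above all 3 non-obese ones, the heaviest mouse had the highest level and the lightest mouse had the lowest. The means were 134 ± 39.7 CPM (SD, n = 4) and 55.1 ± 19.9 CPM (SD, n = 3), and the 3 Nnat+/+ libraries, at 49.5, 80.9 and 41.8 CPM, lay below the obese values and overlapped the non-obese ones. As a split by weight group the log2 fold change was 1.29 (SE 0.31, 95% interval 0.65 to 1.94), with an unadjusted p of 0.000367 and an adjusted p of 1 by edgeR. Leaving out each of the 10 libraries in turn gave log2 fold changes from 1.04 to 1.49.

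As a slope over the 7 Nnat+/-p libraries, Gfap rose by 0.13 log2 units for each gram (SE 0.021, 95% interval 0.0842 to 0.171). Its adjusted p was 0.0922 by edgeR's quasi-likelihood test, Benjamini-Hochberg adjusted, 1 call in 14194 genes (0.00705%). At an unadjusted p under 0.05 there were 274 genes (1.93%), with 137 slopes in each direction (0.965%). That share is below the 0.05 that this threshold passes on average where no gene differs. The slope of Gfap stayed between 0.11 and 0.13 whichever library was left out, but the call did not hold in every case. Gfap was called without library 16 (adjusted p = 0.0698), 19 (0.0881) or 20 (0.0491), and not without library 17 (1.00), 18 (0.396), 21 (0.368) or 22 (1.00), of which 17 and 22 are the heaviest and the lightest mouse. With the 3 Nnat+/+ libraries and a genotype term added, its adjusted p was 0.284. DESeq2 (adjusted p = 1.34e-06) and limma voom (adjusted p = 0.0362) also called it on the 7 libraries.

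Gfap lies at chr11:102887336-102900912 on the minus strand of GRCm38, where the annotation has Gm26668 on the opposite strand. The counting strand is not given in the sources used here, so reads of that neighbour cannot be separated from those of Gfap. The 250 bases before the RefSeq start of Gfap (GRCm38.p6, chr11:102897201-102897450, minus strand, 5′ to 3′), which lies inside the longer span that GENCODE gives, are printed because Gfap is the gene that passed. The window was searched on both strands for TTCNNNGAA, the core that STAT factors bind, and for TGACG, the core of cyclic AMP response elements. It holds neither, so nothing is in capitals, while 8.13% and 19.8% of the same windows of 27025 genes hold them. The absence of these letters says nothing of the factors.
Gfap: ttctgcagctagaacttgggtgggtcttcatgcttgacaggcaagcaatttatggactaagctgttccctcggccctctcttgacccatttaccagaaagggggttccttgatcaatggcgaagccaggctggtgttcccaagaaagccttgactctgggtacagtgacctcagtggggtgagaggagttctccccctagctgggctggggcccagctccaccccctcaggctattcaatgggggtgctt

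**Figure D3:**
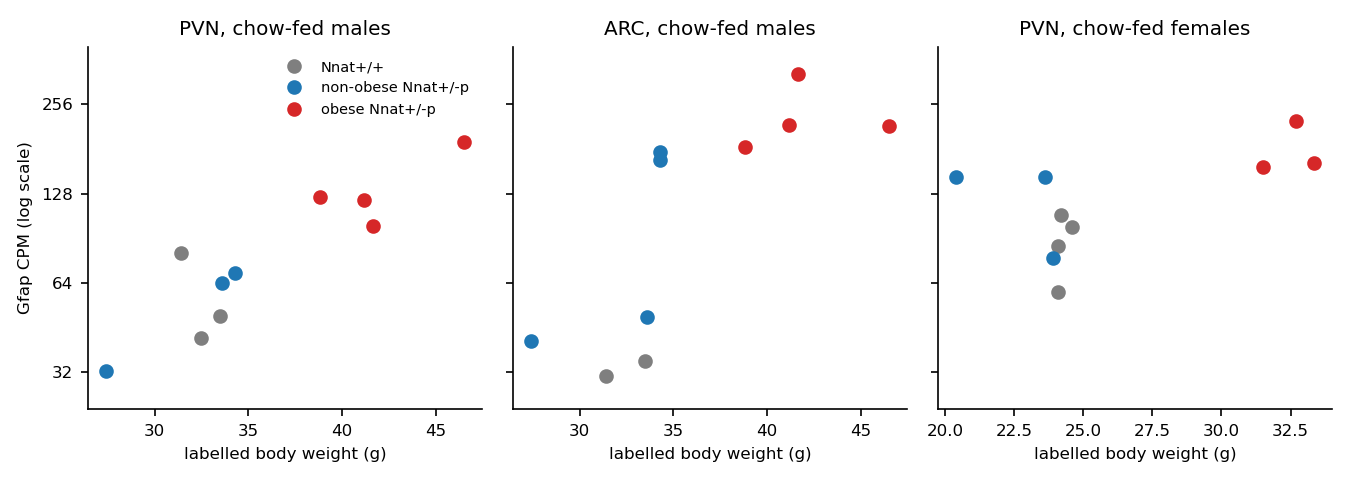
Gfap CPM (vertical axis, log scale) against labelled body weight in g (horizontal axis), 1 point per library, in chow-fed male PVN, male ARC and female PVN. In male PVN the 4 obese points lie between 99.4 and 191 CPM and the 3 non-obese points between 32.3 and 69.1 CPM.

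Gfap was followed in the other tissues and diets of the series, where C4b and the remaining astrocyte genes were read beside it. In the ARC of chow-fed Nnat+/-p males, Gfap was 184, 217, 324 and 218 CPM in the 4 obese libraries. In the 4 non-obese ARC libraries it was 40.8 CPM at 27.4 g, 49.1 CPM at 33.6 g, and 178 and 167 CPM in 2 libraries labelled 34.3 g. The groups did not overlap, but the 2 libraries of 34.3 g came close to the obese ones and stood apart from the other non-obese ones. The slope there was 0.14 log2 units per g (SE 0.031), with an unadjusted p of 0.000228, an adjusted p of 0.938 and 0 of 12325 genes called (0%, with 2.51% at an unadjusted p under 0.05). The ARC libraries carry the same labelled weights as the PVN ones, and no label ties libraries to mice, so the ARC may hold the same animals and is no independent sample of mice. In the PVN of chow-fed females, Gfap was 225, 162 and 158 CPM in obese and 146, 146 and 77.6 CPM in non-obese Nnat+/-p libraries, with no overlap. The female slope was 0.05 log2 units per g (SE 0.030, 95% interval -0.02 to 0.11) with an unadjusted p of 0.158 by edgeR, and 0 of 13788 genes were called (0%, with 6.59% at an unadjusted p under 0.05). The tests between nuclei take libraries as independent. The obese against non-obese difference in Gfap did not differ detectably between male PVN and ARC (difference of log2 fold changes 0.16, unadjusted p = 0.737, and -0.32, SE 0.33, unadjusted p = 0.336 with the labelled weight as a block) or between male and female PVN (0.74, SE 0.46, unadjusted p = 0.122).

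HFD-fed Nnat+/+ males of like weight held less Gfap than obese chow-fed Nnat+/-p males. In 1 fit of all labelled male PVN libraries, obese chow-fed Nnat+/-p libraries held 96.5 to 189 CPM of Gfap at 38.8 to 46.5 g. Nnat+/+ males on 45% HFD weighed 37.4 to 42.9 g and held 45.6 to 91.1 CPM (n = 6), so the 2 sets of libraries did not overlap. Nnat+/-p males on 45% HFD weighed 38.2 to 43.9 g and held 85.7, 97.8 and 59.3 CPM. Obese chow-fed Nnat+/-p libraries were higher than HFD-fed Nnat+/+ ones by 0.92 log2 units (SE 0.23, adjusted p = 0.0720 by edgeR with Benjamini-Hochberg adjustment, where 286 of 17576 genes, 1.63%, were called). Against the 3 HFD-fed Nnat+/-p libraries the difference was 0.70 (SE 0.28, adjusted p = 0.577, where 46 genes, 0.262%, were called). Diet differs in both comparisons, and genotype in the first, so their parts cannot be told apart.

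C4b, a complement component that reactive astrocytes express, was the only other gene of the 14 astrocyte genes listed that had an unadjusted p under 0.05. Its level was 19.5, 30.2, 36.4 and 22.2 CPM in the obese libraries and 11.0, 6.32 and 9.94 CPM in the non-obese ones, with 12.1, 12.1 and 1.29 CPM in Nnat+/+. The groups did not overlap, with a log2 fold change of 1.56 (SE 0.56, unadjusted p = 0.00999) and a slope of 0.11 log2 units per g (SE 0.035, adjusted p = 1.00). C4b (chr17:34728380-34743882) has the near-identical copy C4a, which drew 0 to 20 reads per library against 7 to 163 for C4b, so reads may have been split between them. In non-obese libraries 18, 19 and 22, C4a drew 3, 7 and 20 reads beside 53, 15 and 49 for C4b. In obese libraries 16, 17, 20 and 21, it drew 9, 0, 1 and 3 beside 94, 163, 108 and 78. What this did to the fold change of C4b was not tested. The water channel Aqp4 (160, 92.0, 65.7 and 70.3 against 60.3, 91.8 and 61.9 CPM) and the glutamate transporter Slc1a2 (761, 1105, 623 and 784 against 794, 752 and 648 CPM) overlapped between groups. So did the transporter Slc1a3, at a log2 fold change of -0.05 (SE 0.23), the gap junction protein Gja1, at -0.26 (SE 0.30), and Serpina3n, another gene of reactive astrocytes, at -0.81 (SE 0.59). Of 13 astrocyte genes tested, 2 had an unadjusted p under 0.05, both higher in obese mice, and 8 lay above 0, with a median of 0.16 beside -0.00427 over all genes. Over all genes 0.839% were higher at that level and 49.5% lay above 0. The summed level of the list was 1623 to 2669 CPM in obese and 1601 to 1996 CPM in non-obese libraries. In captured tissue, fewer cells of a type and less RNA per cell cannot be told apart, and this holds for every gene named here.

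**Figure D4:**
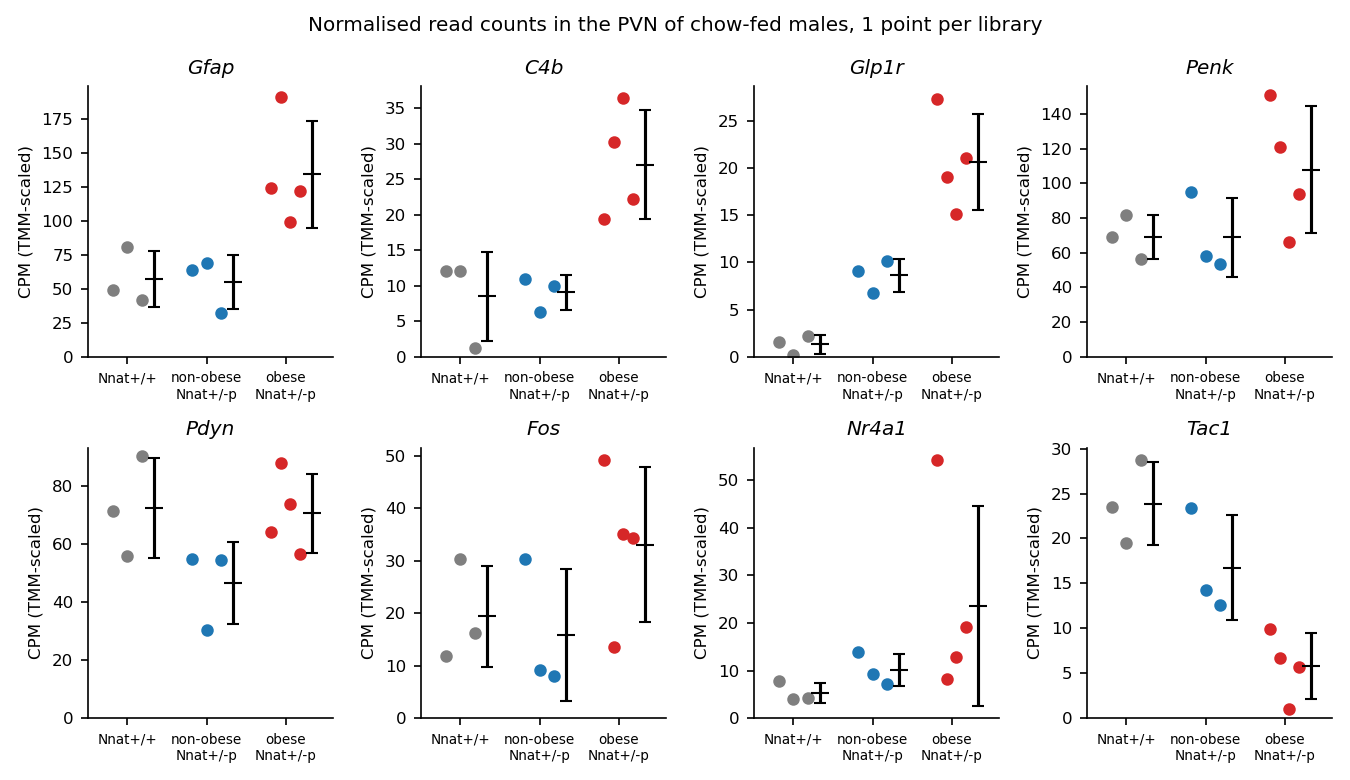
CPM (vertical axis) of Gfap, C4b, Glp1r, Penk, Pdyn, Fos, Nr4a1 and Tac1 in chow-fed male PVN, 1 point per library, with bars for the mean ± SD of each group. Obese and non-obese points do not overlap for Gfap, C4b, Glp1r, Pdyn and Tac1, and overlap for Penk, Fos and Nr4a1.

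The hormones that define the PVN did not differ beyond the spread of the fit, which the Nnat+/+ libraries share. Avp was 298, 474, 384 and 421 CPM in the obese and 456, 204 and 366 CPM in the non-obese libraries, a log2 fold change of 0.20 (SE 0.71). Oxt was 400.5, 591, 227 and 324 CPM against 563, 207 and 442 CPM, a log2 fold change of -0.07 (SE 0.76). Both groups covered nearly the same range for each hormone, and library 19 was the lowest of the 7 for each. Crh (log2 fold change -0.04, SE 0.60) and Trh (-0.06, SE 0.46) were closer still. Their 95% intervals were -1.27 to 1.20 and -1.01 to 0.89, so that the fit left a wide range for each. Nnat+/+ library 15, which is in that fit, held 1 read of Avp, 3 of Oxt, 5 of Crh and 48 of Trh. The SEs in this paragraph therefore do not measure the spread of the 7 Nnat+/-p libraries alone. Sst, which encodes somatostatin, ran from 2.07 to 40.2 CPM in obese and from 13.5 to 73.5 CPM in non-obese libraries. The transcription factors Sim1 (log2 fold change 0.28, SE 0.65) and Otp (0.20, SE 0.44) overlapped as well.

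Other peptides of PVN neurons gave the 3 members of the hormone list with an unadjusted p under 0.05. Tac1, the precursor of substance P, was 9.95, 6.68, 1.01 and 5.69 CPM in obese libraries and 23.4, 14.3 and 12.6 CPM in non-obese ones. Every obese value lay below every non-obese one, and the 3 Nnat+/+ libraries held 23.5, 19.5 and 28.7 CPM. The log2 fold change was -1.50 (SE 0.53, unadjusted p = 0.00958), from counts of 3 to 48 reads in the obese libraries, and the largest unadjusted p with 1 library left out was 0.0674, without library 18. HFD-fed Nnat+/+ males of like weight held 8.50 to 26.6 CPM of Tac1. Obese library 16, at 9.95 CPM on the scale of the values above, fell within that range. In the fit, Tac1 of obese chow-fed Nnat+/-p males was lower than that of these HFD-fed males. The difference was -1.63 log2 units (SE 0.43, adjusted p = 0.104 by edgeR with Benjamini-Hochberg adjustment), which passes the threshold of 0.25. In that comparison 286 of 17576 genes (1.63%) were called, and diet and genotype differ together and cannot be told apart. The comparison with HFD-fed Nnat+/-p males is not given for Tac1. Between the 2 weight groups, the 2 opioid precursors differed the other way from Tac1. Pdyn, which encodes prodynorphin, was 64.0, 87.9, 73.8 and 56.7 CPM in obese against 54.9, 30.3 and 54.4 CPM in non-obese libraries (log2 fold change 0.59, SE 0.28, unadjusted p = 0.0468). The gap between the groups was small. The Nnat+/+ libraries, at 71.4, 55.8 and 90.2 CPM, ran from between the 2 groups to above the obese one. Penk, which encodes proenkephalin, was 151, 121, 66.1 and 93.9 CPM against 95.1, 58.1 and 53.4 CPM, and the groups overlapped (0.65, SE 0.29, unadjusted p = 0.0359). Neither opioid precursor kept an unadjusted p under 0.05 whichever library was left out. The fold change was 0.37 for Pdyn (unadjusted p = 0.237) without library 19 and 0.44 for Penk (unadjusted p = 0.153) without library 16. Of the 14 tested members of the 19 hormones and peptides listed, 2 were higher and 1 lower at that level, 4 lay above 0, and the median was -0.07. Over all genes 0.839% were higher and 0.826% lower at that level, 49.5% lay above 0, and the median was -0.00427. Without library 19, which held the least hormone RNA, 0 members of the list were higher and 2 lower at an unadjusted p under 0.05, and their median was -0.28. Over all 17004 genes of that fit, 245 were higher and 138 lower at that level, and the median was 0.0437.

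Glp1r, the receptor through which glucagon-like peptide 1 reduces food intake, was the only one of 23 tested appetite and stress hormone receptors with an unadjusted p under 0.05. It was 27.4, 19.1, 15.2 and 21.1 CPM in obese and 9.11, 6.74 and 10.2 CPM in non-obese libraries, and 1.55, 0.216 and 2.21 CPM in Nnat+/+. The 3 groups did not overlap, with Nnat+/+ lowest and obese Nnat+/-p highest. The log2 fold change between obese and non-obese was 1.24 (SE 0.58, 95% interval 0.06 to 2.43, unadjusted p = 0.0410), and it ran from 1.08 to 1.40 when each library was left out. The unadjusted p then rose to as much as 0.107, without library 19, and was above 0.05 without any 1 of libraries 16, 17, 18, 21 and 22 as well. On the weight scale Glp1r had a slope of 0.07 log2 units per g (SE 0.041, adjusted p = 1.00). Glp1r lies at chr17:30901817-30940791 on the plus strand, where annotated genes overlap it on the other strand. Mc4r, the melanocortin receptor of satiety, was 8.50, 13.5, 5.06 and 1.99 CPM against 12.0, 10.5 and 9.13 CPM, and Npy1r, a receptor of neuropeptide Y, had a log2 fold change of 0.48 (SE 0.53). Both overlapped between groups. The leptin receptor Lepr was 17.6 CPM in library 16 and 0.609 to 3.11 CPM in the other 6. Ntsr1, a neurotensin receptor, was below the filter at 0.207 to 1.69 CPM, and its difference on the log2(CPM + 0.5) scale was -0.38 (two-sided exact permutation p = 0.457 over 35 splits, of which the smallest possible is 0.0286). The median over the 23 receptors was -0.05, with 11 above 0. Without library 19 it was 0.16, with 15 of 24 above 0 and 0 at an unadjusted p under 0.05. Over all 17004 genes of that fit, 9041 lay above 0 and the median was 0.0437.

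The granins and the enzymes that cut prohormones, 11 of 11 tested, had 0 members at an unadjusted p under 0.05 and a median of -0.00512. Vgf, a granin-like precursor, had the smallest p of them, at 176, 221, 212 and 248 CPM in obese and 138, 148 and 185 CPM in non-obese libraries. Only obese library 16, at the lowest obese weight, lay within the non-obese range (log2 fold change 0.45, SE 0.25, unadjusted p = 0.0827). Chga was 167, 138, 76.5 and 113 CPM against 118, 121 and 125 CPM, and the convertase Pcsk1 had a log2 fold change of -0.09 (SE 0.35).

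Immediate early genes, which neurons transcribe within minutes of stimulation, had the largest median of the 14 pathway lists. All 18 were tested, 14 had a log2 fold change above 0 where 49.5% of all genes did, and the median was 0.56. The lists were chosen with earlier results of these data known, so their rank by median is a description and no test. Fos was 49.3, 13.5, 35.1 and 34.5 CPM in obese and 30.5, 9.27 and 8.12 CPM in non-obese libraries. Library 17, of the heaviest mouse, fell among the non-obese values (log2 fold change 1.03, SE 0.49, unadjusted p = 0.0446). With each library left out the fold change of Fos ran from 0.73 to 1.93, with an unadjusted p of up to 0.177, and that p was above 0.05 without any 1 of libraries 16, 19, 20, 21 and 22. Nr4a1, an orphan nuclear receptor of the same class of early genes, was 54.3, 8.16, 12.8 and 19.1 CPM against 13.9, 9.27 and 7.30 CPM (1.21, SE 0.58, unadjusted p = 0.0468). Its difference rested on library 16, without which it was 0.39. Without that library the list had 0 members at an unadjusted p under 0.05 in place of 2, 11 above 0 and a median of 0.41, and without library 19 it had 3 and a median of 0.90. Egr1 (74.4, 32.5, 51.2 and 53.5 against 94.5, 37.1 and 25.0 CPM) and Dusp1 (21.1, 9.46, 13.8 and 9.11 against 24.9, 13.1 and 4.06 CPM) overlapped fully. None of the 17 members tested on the weight scale had an unadjusted p under 0.05.

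The 250 bases before the RefSeq starts of Fos (chr12:85473640-85473889, plus strand) and Nr4a1 (chr15:101266596-101266845, plus strand) are printed as the early genes with the smallest p, from GRCm38.p6 and 5′ to 3′. The capitals mark TGACG on either strand (CGTCA where it is on the other strand). Fos holds it 2 times, from 129 and 66 bases before the start, and Nr4a1 holds it 4 times, from 233, 213, 69 and 40 bases before it, where 19.8% of all windows hold at least 1. The RefSeq start of Nr4a1 lies inside the longer span that GENCODE gives.
Fos: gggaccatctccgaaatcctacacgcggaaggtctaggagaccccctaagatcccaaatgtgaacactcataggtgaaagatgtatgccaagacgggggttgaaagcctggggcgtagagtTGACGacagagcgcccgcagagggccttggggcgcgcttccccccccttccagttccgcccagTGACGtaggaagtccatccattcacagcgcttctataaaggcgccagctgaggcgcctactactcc
Nr4a1: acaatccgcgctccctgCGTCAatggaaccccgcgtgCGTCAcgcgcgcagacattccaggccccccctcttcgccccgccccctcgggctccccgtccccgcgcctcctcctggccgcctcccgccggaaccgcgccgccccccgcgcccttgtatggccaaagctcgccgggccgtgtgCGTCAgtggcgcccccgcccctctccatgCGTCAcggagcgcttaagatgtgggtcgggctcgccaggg

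The remaining pathway lists had at most 1 member at an unadjusted p under 0.05. In leptin and insulin signalling, 15 of 15 genes were tested, 0 had an unadjusted p under 0.05, and the median was -0.12. Stat3, which carries the leptin signal, was 30.0, 57.9, 42.8 and 46.4 CPM in obese and 66.9, 48.0 and 54.6 CPM in non-obese libraries, and Socs3, its feedback inhibitor, was at most 8.43 CPM. In the glucocorticoid axis 0 of 12 passed that level, with the receptor Nr3c1 at a log2 fold change of -0.08 (SE 0.25) and the target Fkbp5 at -0.18 (SE 0.41). In the thyroid hormone axis the TRH receptor gene Trhr, at 0.421 to 12.1 CPM over the 7 libraries, was 1 of 7 at that level, with overlapping groups. Its log2 fold change was 1.99 (SE 0.96), with an unadjusted p of 0.0485 by edgeR. That fold change ran from 1.51 without library 20 to 3.23 without library 18, and the unadjusted p stayed under 0.05 only without library 17, 18 or 21. Nrgn, which encodes neurogranin, was 8.08, 22.6, 15.8 and 13.4 against 17.0, 9.69 and 6.49 CPM. Among 17 genes of the endoplasmic reticulum, where neuronatin resides, 0 passed and the median was -0.04, with the chaperone Hspa5 at -0.04 (SE 0.27). Among 29 imprinted genes and Trim28, 0 passed and the median was -0.00222. Peg3 was 2021, 1813, 1282 and 1518 CPM against 1743, 1091 and 1784 CPM, Dlk1 had a log2 fold change of -0.19 (SE 0.28), and Blcap, the gene in which Nnat lies, was 80.8, 77.3, 68.8 and 69.5 against 147, 43.8 and 76.9 CPM. Cholesterol and fatty acid genes (0 of 17, median 0.17), clock genes (0 of 14, median -0.11), cytokine and NF-kB genes (0 of 6, median 0.15) and the 7 mitochondrially encoded mRNAs that were tested (0 of 7, all 7 above 0, median 0.10) had none at that level either. The cytokine median was 0.67 without library 19 and -0.19 without library 20. mt-Co2, mt-Co3, mt-Atp6, mt-Atp8 and mt-Nd4l are listed at 0 in all 10 libraries. Ucp2, a mitochondrial carrier, had a log2 fold change of -0.38 (SE 0.30), and Npy and Tbx3, arcuate genes, were at or below 4.21 and 15.5 CPM.

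On the weight scale the same lists had few members at an unadjusted p under 0.05, where 0.965% of all genes had a positive and 0.965% a negative slope at that level. Sqle and Insig1, of cholesterol synthesis and its control, and Scd1, of fatty acid desaturation, had positive slopes of 0.07 (SE 0.028), 0.06 (SE 0.024) and 0.05 (SE 0.019) log2 units per g, 3 of 17 genes of that list. Their highest values, 68.8, 51.6 and 203 CPM, were all in library 17. The imprinted non-coding RNAs Meg3 and Kcnq1ot1 had negative slopes of -0.06 (SE 0.023) and -0.06 (SE 0.024), 2 of 29, and their highest values, 2178 and 264 CPM, were both in library 22, the lightest mouse. None of these 5 passed the adjusted threshold. Apart from Gfap, the 2 further genes of smallest p with a positive slope were 0610037L13Rik (0.20, SE 0.039, adjusted p = 0.460), which had 81.4 CPM in library 17 and 3.11 to 15.8 CPM in the others, and Bcas1, a gene of newly forming oligodendrocytes (0.08 per g, unadjusted p = 0.0013). Those with a negative slope were A230057D06Rik (-0.15, SE 0.039), Vps13a (-0.07 per g) and Sbf2 (-0.07 per g, and -0.033 without library 22), all with an adjusted p of 1.00.

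**Figure D5:**
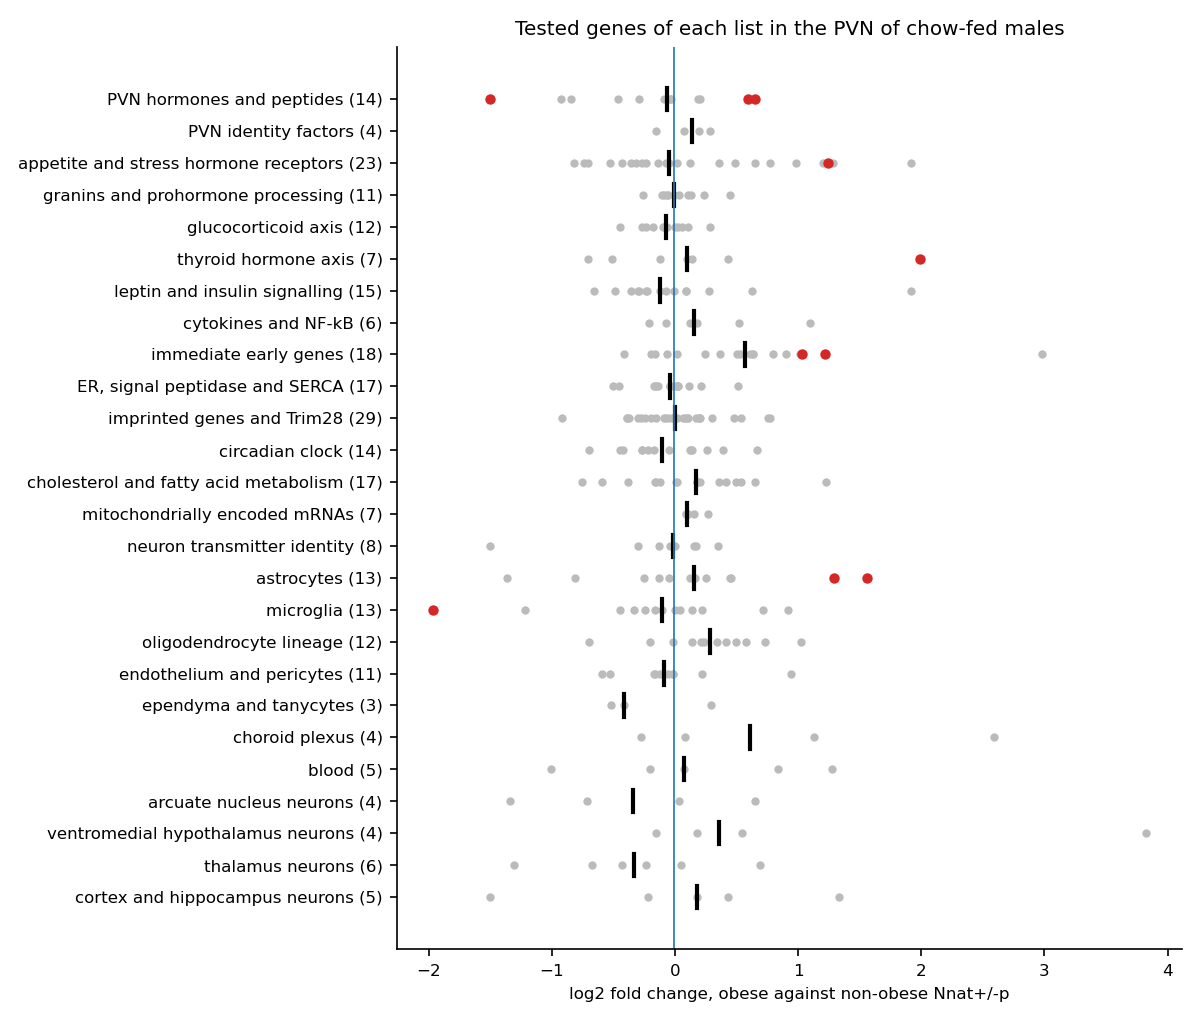
log2 fold change between obese and non-obese Nnat+/-p PVN (horizontal axis, positive where obese is higher) of each tested gene in 26 gene lists (rows, with the number tested), with black bars for medians and red points for an unadjusted p under 0.05. Most medians lie near 0, and 10 points are red. The median lies at 0.56 for the 18 immediate early genes, 0.61 for 4 choroid plexus genes and -0.41 for 3 ependymal and tanycyte genes.

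Markers of the other cells that the capture could hold were read for the same libraries. Of 13 microglial genes, Tmem119 had an unadjusted p under 0.05, at 0, 2.60, 5.73 and 4.27 CPM in obese and 6.84, 16.0 and 13.8 CPM in non-obese libraries, with no overlap and 4.04 ± 1.64 CPM (SD, n = 3) in Nnat+/+. C1qa lay the other way without overlap, at 17.6, 13.9, 12.5 and 17.1 against 10.4, 5.48 and 8.12 CPM, and P2ry12 and Csf1r overlapped, so the list had no common direction (5 above 0, 8 below, median -0.11). Tmem119 had an unadjusted p of up to 0.12 when each library was left out, and without library 16 or 19 the list had 0 members at an unadjusted p under 0.05 and 7 above 0. Of 12 oligodendrocyte genes 9 lay above 0, where 49.5% of all genes did. Their median was 0.28, and 0 had an unadjusted p under 0.05. Without library 19 the median was 0.62, with 2 at that level. Mbp, of myelin, was 207, 386, 182 and 275 CPM against 161, 228 and 140 CPM (log2 fold change 0.58, SE 0.30, unadjusted p = 0.0662). It had a slope of 0.07 per g (SE 0.020, adjusted p = 1.00) and, like Gfap, its highest value in library 17. Summed oligodendrocyte markers reached 496 to 900 CPM in obese and 444 to 682 CPM in non-obese libraries. Endothelial and pericyte genes had 2 of 11 above 0 and a median of -0.09, and the 6 thalamic genes had 2 above 0 and a median of -0.33. Without library 19, which held the most thalamic RNA, 5 thalamic genes lay above 0, 1 of them at an unadjusted p under 0.05, and the median was 0.36.

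The 6 genes of smallest p in each direction, the rule by which genes outside the lists are named, showed how far single libraries decide such values. Upward, Slc6a7, a proline transporter of neurons, was 30.7, 30.1, 23.3 and 31.6 CPM in obese and 16.2, 4.63 and 9.13 CPM in non-obese libraries, without overlap (log2 fold change 1.50, SE 0.43, unadjusted p = 0.00192). The Nnat+/+ libraries, at 32.5, 15.6 and 20.6 CPM, ran from within the non-obese range to above the obese one. The transcription factor Grhl1 (14.3, 3.90, 19.9 and 4.27 against 1.86, 1.26 and 2.23 CPM) did not overlap between groups either, nor did Gm13509, a pseudogene that lies within Mbd5 and may share its reads. Osbp2 was 742 CPM in library 20 and 8.91 to 21.1 CPM in the other 6, so its log2 fold change of 3.79 became 0.17 without library 20. 0610037L13Rik likewise went from 2.15 to 0.85 without library 17. Downward, Abl1, a tyrosine kinase, was 19.7, 12.8, 24.9 and 19.9 CPM against 37.5, 59.0 and 29.6 CPM (-1.12, SE 0.34, unadjusted p = 0.00277), and Wdr43, which acts in ribosome assembly, was 24.7, 27.8, 27.6 and 33.0 CPM against 54.1, 49.7 and 50.5 CPM (-0.86, SE 0.29, unadjusted p = 0.00639). Neither overlapped, and Wdr43, in which small nucleolar RNAs lie, was 23.5, 29.4 and 23.6 CPM in Nnat+/+, close to the obese libraries. Sbf2 and the kinase-like gene Adck2 were also lower without overlap (-0.94, SE 0.30 and -2.06, SE 0.69), and Emc8, of the membrane protein insertion complex, was lower with overlap (-1.07, SE 0.35). Sbf2 was -0.49 (unadjusted p = 0.167) without library 22, and Emc8 -0.74 (unadjusted p = 0.0867) without library 18. 1700028E10Rik is listed at 0 in all 4 obese libraries and in non-obese library 22.

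The same contrast in the most similar tissues called few or no genes. In the male ARC 1 of 14658 genes (0.00682%) was called, Pmch, a gene of lateral hypothalamic neurons that was lower in obese mice, and 623 (4.25%) had an unadjusted p under 0.05. Its adjusted p was 0.245 by edgeR and 0.289 with DESeq2 size factors, and the call was lost without library 36, 39, 41, 42 or 43 and with all labelled libraries in the fit. In the female PVN 0 of 15485 (0%) were called by edgeR, with 474 (3.06%) at an unadjusted p under 0.05. Tests of the difference itself, with obesity crossed with nucleus or with sex, called 0 of 16100 and 0 of 16037 genes (0% each), with 513 (3.19%) and 539 (3.36%) at an unadjusted p under 0.05. With the labelled weight as a block, the test between nuclei called 2 genes, Pomc and Avp, at PVN minus ARC differences of -3.33 (SE 0.61) and -4.41 (SE 0.86), a choice made after seeing the data. Both are marker genes of the dissected nuclei. Library 19, whose PVN markers were low, was in that fit, and its part in either call was not tested. For Tac1 the log2 fold change was -1.50 in male PVN, -0.41 in male ARC and 0.32 in female PVN. Glp1r had 1.24, 0.07 and 0.42 and C4b had 1.56, 0.89 and -0.06 in the same order. The male minus female difference for C4b was 1.61 with an unadjusted p of 0.0314, and none of the 3 genes had an adjusted p under 0.25 by edgeR in either test of the difference.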

How the data were processed

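The deposited files hold raw read counts per gene, which the authors made by aligning single-end reads of 50 bases; the submitters' processing notes name STAR 2.5.0a and GRCm38, and the counting tool, annotation release and strand setting are not given in the sources used here. The 7 Nnat+/-p and 3 Nnat+/+ chow-fed male PVN libraries were fitted together with edgeR 4.0.16 in R 4.3.3 (glmQLFit and glmQLFTest, TMM factors, filterByExpr with a minimum count of 10), Benjamini-Hochberg adjustment ran over all genes tested, and a call needed an adjusted p under 0.25. The slope on labelled weight used the 7 Nnat+/-p libraries. DESeq2 1.42.0 and limma 3.58.1 (voom) were alternatives, and adjusted p-values that DESeq2 gave as missing (25 genes) stayed missing. Scripts were tested on simulated data. Gene names and positions came from GENCODE vM21, which named 53274 of 53379 gene identifiers, and upstream sequences from RefSeq (GRCm38.p6).

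Nnat, Blcap, genes called, the 6 smallest p-values in each direction, the 3 smallest in each direction of the weight slope, genes that the study names, and list-defining members with the smallest p of each list were named. C4b, Nr4a1, Penk, Pdyn and further list members given as examples were chosen after their values were seen. The members and the 28 lists (320 genes) were chosen with earlier results of these data known. A total count under 25% of the median of its table removed 3 libraries of other groups, and 1 column of the PVN table, whose label names the ARC, was not used. No label states which mouse a library came from, and ARC libraries 39 and 40 share a labelled weight, so p-values measure only the spread between these libraries. Totals of 2268021 to 5569950 counts limit the precision of genes under 5 CPM most.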

Additional observations from a re-analysis of the deposited data

Results flagged for a closer look

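In the 4 obese libraries, 9 genes had 1 library far from the other 3, with a gap over the whole range of the group that exceeded Dixon's 95% value, out of 65 genes examined. For normally distributed values chance alone marks about 1 group in 20. The rule was applied to CPM without logs, and part of the genes had been named for a small p in these libraries. That rate need not hold here, and whether 9 is an excess was not tested. The non-obese group, with 3 libraries, was too small for this rule.

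Library 16 was the far one for the leptin receptor Lepr (0.939 of the range, 17.6 CPM), for Pecam1, an adhesion molecule of endothelium (0.919, 37.3 CPM), for the pseudogene Gm13509 (0.898, 19.1 CPM) and for the cytokine feedback inhibitor Socs3 (0.851, 8.29 CPM). Library 20 was the far one for Osbp2, an oxysterol-binding protein (0.983, 742 CPM), and for Sox14, a transcription factor (0.831, 5.05 CPM). Library 21 was the far one for the glutamate transporter Slc17a7 (0.943, 2.85 CPM) and the transcription factor Lhx9 (0.879, 8.82 CPM). Library 17, of the heaviest mouse, was the far one for 0610037L13Rik (0.911, 81.4 CPM). Leaving out library 16 took the log2 fold change of Lepr from 1.91 to 0.64 and that of Pecam1 from 0.95 to 0.61.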

How the results depend on the processing

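No gene was called between obese and non-obese mice under any alternative run but 1. With no filter beyond a total count above 1, 6 were called (Osbp2, Gfap, Chd1l, 0610037L13Rik and Plekhh2 higher, S1pr4 lower). The 260 genes at an unadjusted p under 0.05 became 680 with that filter, 787 with all 5 groups of the male PVN in the fit, 400 with limma voom and 438 without libraries 15 and 19, a choice made after seeing the data, and lay between 260 and 397 when each library was left out. For the slope on weight, 1 gene was called (Gfap), 0 at an adjusted p under 0.05, 7 with every gene tested, 0 with a genotype term, and 0 to 2 when each library was left out. The call was lost without library 17, 18, 21 or 22, and without library 19 both Gfap and 0610037L13Rik were called. Genes with a slope at an unadjusted p under 0.05 numbered 1487 with every gene tested, 453 with limma voom, 179 without library 17 and 401 without library 19. In the ARC, 0 were called at an adjusted p under 0.05, 0 with all labelled libraries, 0 with DESeq2 size factors and 0 to 1 when each library was left out. In the female PVN, 622 were called once the libraries of low total were included. The tests of the difference called 0 to 1 genes between nuclei (1 without library 19 or 41) and 0 to 4 between sexes (4 without library 11, 1 without library 9) when each library was left out.

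Genes near 0 changed sign. Without libraries 15 and 19, log2 fold changes were -0.058 for Avp, 0.076 for Fkbp5, 0.16 for Foxj1, -0.10 for Otp, -0.083 for Peg3 and -0.11 for Sim1. Npy, nearly absent, was -0.056 with DESeq2 and -0.014 with its size factors. With each library left out, the ranges that crossed 0 were -0.059 to 0.46 for Avp, -0.59 to 0.28 for Blcap, -0.30 to 0.38 for Crh, -0.38 to 0.081 for Dlk1, -0.56 to 0.075 for Fkbp5, -1.19 to 0.16 for Foxj1, -0.29 to 0.11 for Hspa5, -0.58 to 5.64 for Npy, -0.10 to 0.70 for Otp, -0.37 to 0.24 for Oxt, -0.085 to 0.25 for Peg3, -0.12 to 0.72 for Sim1 and -0.28 to 0.092 for Trh. The cause was not tested. No label pairs libraries by mouse, and the replicate numbers count libraries and never recur between groups, so the planned tests between nuclei took libraries as independent. Labelled weights do recur between PVN and ARC libraries, and with the weight as a block, a choice made after seeing the data, the test between nuclei called 2 genes in place of 0. Intervals cover counting and the spread between these libraries.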

Other observations

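Genes of several neighbouring regions and other tissues were read in the 7 Nnat+/-p libraries. The 7 arcuate genes listed summed to 6.84 to 17.5 CPM in obese and 6.70 to 28.6 CPM in non-obese libraries, the choroid plexus genes to 12.8 to 30.2 and 14.7 to 28.2 CPM, and the ependymal and tanycyte genes to 7.79 to 12.8 and 8.12 to 14.3 CPM. Among the arcuate genes, Kiss1 was matched by synonym to Golt1a and so was not itself in the sum. Golt1a drew 0 reads in the obese libraries and at most 1 in the non-obese ones. Blood genes summed to 8.70 to 52.9 and 8.43 to 55.8 CPM. Pmch and Hcrt, of the lateral hypothalamus, were listed at 0 in all 3 non-obese libraries and summed to at most 4.27 CPM in the obese ones. Genes of neuron transmitter identity had a median log2 fold change of -0.02 over 8 tested members, with 0 at an unadjusted p under 0.05, and cortical and hippocampal genes had 0.18 over 5.

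Vgf, whose obese and non-obese values overlapped, was not called between the weight groups. It was higher in obese chow-fed Nnat+/-p males than in HFD-fed Nnat+/+ males of like weight by 0.95 log2 units (SE 0.18, adjusted p = 0.00614 by edgeR). Against HFD-fed Nnat+/-p males the difference was 0.55 (SE 0.21, adjusted p = 0.570). Diet and genotype differ together in the first of these comparisons and cannot be told apart there.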
